A study of Mus musculus with 34 samples.

Results

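S100a8, S100a9, Lcn2, Retnlg, Csf3r, Cxcr2, Clec4d, Clec4e, Mmp8 and Trem1 are 10 genes known for high expression in neutrophils. They were chosen by name from the genes that stood highest over control hearts 24 h post-MI in the first of 2 expression tables, so their values in that contrast are given as a description, without a test. The first table lists 14552 genes and the second 17406, and all 10 were present in both, where each averaged 1 CPM or more. CPM is the read count of a gene relative to the size of its library. The average was taken over all libraries, so a gene could reach it through its high group alone.

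The mice were of the CFW strain, an outbred stock, and were infarcted by tying off the left anterior descending artery for good. The first table holds left ventricle (LV) samples of 3 control mice, 3 mice 4 h post-MI and 4 mice 24 h post-MI, none of them injected. The piece taken was the ischemic part of the ventricle, or the matching part in controls. The titles of the control libraries and the study's account call these mice sham, while another field of their labels says that they had no operation. The second table holds 24 LV libraries, 2 of them from sham-operated, uninjected mice labelled 4 hours and the others from infarcted hearts that received modified mRNA (modRNA) in the border zone right after ligation. This modRNA was either Luc, which encodes luciferase and serves as the control, or AC, a name the labels do not spell out. Hearts were collected 4 h (4 Luc and 4 AC libraries), 24 h (3 and 3) and 48 h (4 and 4) post-MI. The age of the mice is not given in the labels. Nothing in the labels says how the second set of libraries relates to separate mice, and p-values measure the spread between these libraries. In the second table, the numbering in the library titles runs on from sham through the 4 h libraries. It is missing at 24 h and starts again at 48 h. Only the 24 h titles carry the letters Br, which the titles do not spell out. A difference between times in this table therefore cannot be told apart from a difference between these sets of libraries. A contrast of a 24 h or 48 h group with sham also crosses these sets. In every contrast with sham, infarction and injection differ together and cannot be told apart. AC and Luc libraries share 1 run of numbers at 4 h and at 48 h, and the titles do not show whether they do at 24 h.

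Neutrophils are the first white blood cells to enter infarcted muscle. They leave the bone marrow loaded with granules of antimicrobial proteins and proteases, find their way by chemokine receptors, and depend on granulocyte colony-stimulating factor for their production and release. S100a8 and S100a9 encode the subunits of calprotectin, a calcium- and zinc-binding complex that makes up much of the neutrophil cytosol and acts as an alarm signal through Toll-like receptor 4 once released. Lcn2 (lipocalin 2, which binds bacterial siderophores), Mmp8 (neutrophil collagenase) and Retnlg (a resistin-like secreted protein) are secreted products. Csf3r is the receptor for granulocyte colony-stimulating factor, and Cxcr2 is the receptor for the chemokines Cxcl1, Cxcl2 and Cxcl5. Clec4d and Clec4e are C-type lectin receptors for microbial glycolipids that signal through the Fc receptor gamma chain, and Trem1 is a receptor that amplifies inflammatory signals through Tyrobp. Several of the 10 are not restricted to neutrophils, since monocytes and macrophages also carry Clec4e, Trem1 and Csf3r, and many injured tissues can make Lcn2.

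In the mouse genome mm10, S100a8 (chr3:90669071-90670034, plus strand) and S100a9 (chr3:90692630-90695721, minus strand) lie 22595 bp apart. Clec4d (chr6:123262107-123275268, plus strand) and Clec4e (chr6:123281789-123289871, minus strand) lie 6520 bp apart. The other members are spread over 6 chromosomes, Lcn2 at chr2:32384637-32387739, Retnlg at chr16:48872608-48874498, Csf3r at chr4:126024659-126044975, Cxcr2 at chr1:74153994-74161246, Mmp8 at chr9:7558429-7568486 and Trem1 at chr17:48232739-48246924. Promoters, taken as the bases from 250 before to 50 after the RefSeq start in GRCm38.p6, were searched on both strands for spelled-out motifs of factors active in myeloid cells. The letters TTGCNNAA, a core of C/EBP sites, were found in 5 of the 10 members and in 10.8% of 32851 promoters. The stretches around them are shown because C/EBP factors are known regulators of neutrophil genes, with the motif in capitals and each stretch read 5′ to 3′ on the strand of its gene.
Lcn2 (chr2:32387937-32387966, minus strand): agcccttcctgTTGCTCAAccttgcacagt
S100a9 (chr3:90695939-90695968, minus strand): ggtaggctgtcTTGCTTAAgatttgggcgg
Clec4e (chr6:123289919-123289948, minus strand): actccttgtccTTGTGCAAgagaggaaatt
Mmp8 (chr9:7558399-7558428, plus strand): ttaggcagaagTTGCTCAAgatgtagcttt
Retnlg (chr16:48872358-48872387, plus strand): agctTTCTGCAAggcattccaggcacctcc
The letters GAGGAAGT, a core of PU.1 sites, were found in 2 of the 10 members and in 3.20% of all promoters, and stand below as read on the strand of the gene.
S100a8 (chr3:90668888-90668917, plus strand): ccaacactcccACTTCCTCagactcagaaa
Mmp8 (chr9:7558197-7558226, plus strand): taactagcacaACTTCCTCattacacacag
An NF-kB motif found in 0.411% of promoters, and the AP-1 letters TGANTCA found in 7.81%, occurred in 0 of the 10 windows. Mmp8 held both of the motifs found. All of these stretches lie upstream of the annotated start, outside exons, and a match describes the letters only.

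In uninjected hearts, the 10 genes were at most 1.70 CPM in any control library, had means of up to 8.65 CPM 4 h post-MI and were far higher 24 h post-MI. S100a9 had 0.470, 0.363 and 0.390 CPM in the control libraries, 2.97, 11.8 and 9.79 CPM 4 h post-MI, and 928, 765, 127 and 341 CPM 24 h post-MI. S100a8 had 0.217, 0.0807 and 0.292 CPM in controls, 1.69, 6.94 and 4.57 CPM at 4 h, and 432, 365, 69.9 and 168 CPM at 24 h. For both calprotectin genes the 3 groups did not overlap, and each step in time raised every library over every library of the step before. The mean of S100a9 24 h post-MI was 540 ± 370 CPM (SD, n = 4), 1325 ± 926 times the mean of controls, which was 0.408 ± 0.0557 CPM (SD, n = 3). By the lowest value of each library, 1 read was worth between 0.0313 and 0.0479 CPM in this table, so that a value under about 0.1 CPM rests on 3 reads or fewer, and no ratio to controls is given for genes whose control values were that low.

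Among the secreted products, Lcn2 was the one already measurable in all controls, with 1.70, 0.887 and 0.520 CPM. It had 6.39, 15.1 and 4.49 CPM 4 h post-MI and 223, 381, 120.2 and 212 CPM 24 h post-MI, a mean of 234 ± 108 CPM (SD, n = 4) and 226 ± 168 times the control mean. Retnlg had 122, 180.3, 19.1 and 40.6 CPM at 24 h, with at most 0.162 CPM in a control library. Mmp8 had 27.1, 47.3, 3.87 and 8.03 CPM at 24 h. The libraries within the 24 h group were thus far apart for Retnlg and Mmp8, and the coefficient of variation of Mmp8 reached 92.3%, the highest of the 10 genes, against 38.3% for Clec4e, the lowest.

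The receptors followed the same order of groups. Csf3r had 0.904, 0.565 and 0.747 CPM in controls, 1.24, 4.26 and 2.75 CPM 4 h post-MI and 193, 149.8, 39.5 and 144 CPM 24 h post-MI, a mean of 132 ± 65.0 CPM (SD, n = 4), 178 ± 97.1 times the control mean. Cxcr2 had 133, 134, 26.7 and 74.9 CPM at 24 h, with at most 0.0975 CPM in a control library. Clec4d had 72.1, 59.0, 22.5 and 50.04 CPM at 24 h, and Clec4e, its neighbour on chromosome 6, had 44.2, 35.6, 14.9 and 34.2 CPM. Trem1 had 59.2, 50.6, 17.8 and 36.5 CPM at 24 h. Library G was the lowest of the 24 h libraries in all 10 genes, and library D was the highest of the 4 h libraries in all 10.

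**Figure D1:**
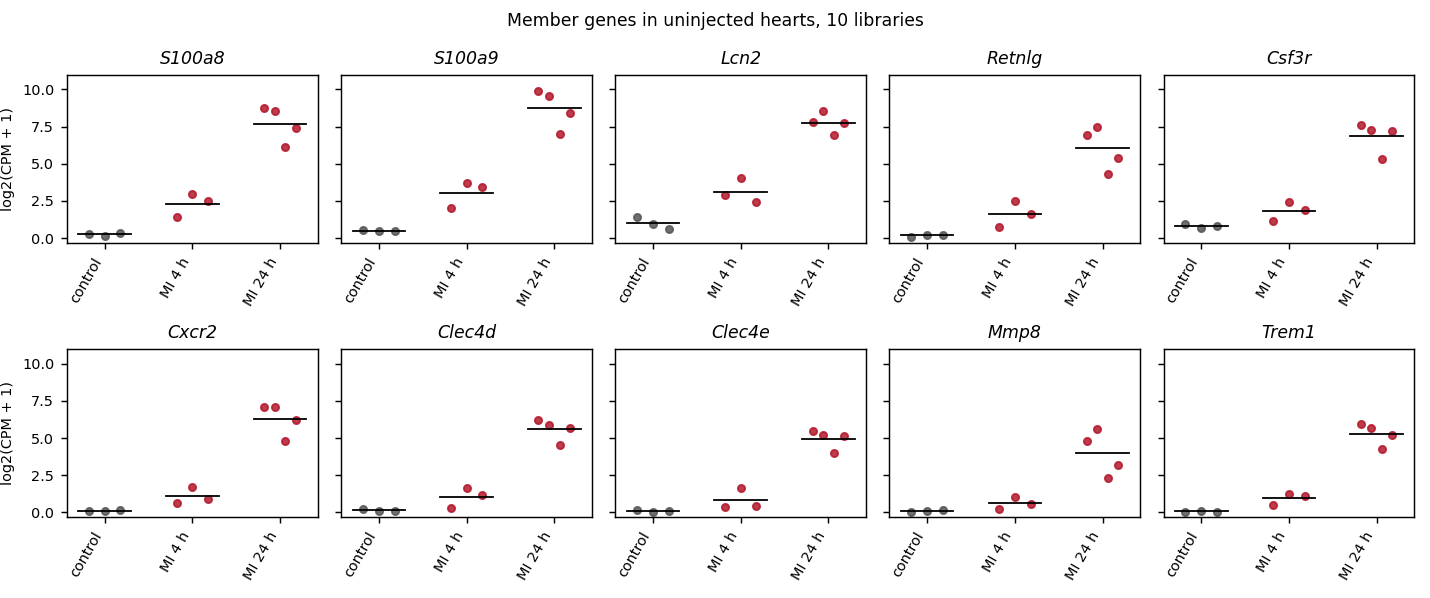
Levels of the 10 genes in the uninjected hearts, as log2(CPM + 1) on the vertical axis, with 1 point per library (3 control, 3 MI 4 h, 4 MI 24 h) and a line at the group mean. In each panel all 24 h libraries lie above all 4 h libraries, which lie above all control libraries.

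All 10 genes had every 24 h library above every control library, which 35.3% of all genes tested also had, and every 24 h library above every 4 h library, which 37% of all genes had. These counts follow from the way the genes were chosen. The summed CPM of the 10 genes was 2.43 to 3.80 in controls, 14.7 to 51.6 at 4 h and 462 to 2233 at 24 h, where it made up between 0.0697% and 0.393% of the summed CPM of all listed genes. In bulk tissue, fewer neutrophils and less of a transcript per neutrophil cannot be told apart. Summed cardiomyocyte markers (Myh6, Tnnt2, Tnni3, Actc1, Pln and Ryr2) moved the other way, from 40196 to 43474 CPM in controls to 15735 to 28124 CPM at 24 h, with library G the highest of the 24 h group. Summed monocyte and macrophage markers rose with the 10 genes, from 107 to 138 CPM in controls to 165 to 255 CPM at 24 h, as did platelet markers, from 3.83 to 8.75 CPM to 18.2 to 40.1 CPM. The part of these cell types in the result was not tested. Of other neutrophil markers, Ly6g, the surface marker commonly used for mouse neutrophils, averaged 0.0363 ± 0.00392 CPM (SD, n = 3) in controls, near 1 read, and 1.73 ± 1.45 CPM (SD, n = 4) 24 h post-MI. The granule genes Ngp and Ltf had 2.26 ± 2.20 and 1.93 ± 1.15 CPM (SD, n = 4) in the 24 h group.

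The contrast of 4 h post-MI with control did not choose the genes, but it shares its 3 control libraries with the contrast that did, and the 24 h libraries enter its estimate of the spread. Lcn2 rose, with a log2 fold change of 2.13 (SE 0.43, limma, adjusted p = 0.0279). It was the 1 member of the 10 to pass an adjusted p of 0.05, where 2.37% of all genes passed in either direction and 1.55% rose. S100a9 had a log2 fold change of 2.54 (SE 0.64, adjusted p = 0.0717) and S100a8 of 2.04 (SE 0.58, adjusted p = 0.112). The other 7 members lay between 0.50 for Mmp8 and 1.45 for Retnlg, with adjusted p from 0.258 to 0.765. With raw p-values, 5 of the 10 genes were under 0.05, against 16.5% of all genes. The 10 genes had a median log2 fold change of 0.996 against -0.03 over all genes, and in all 10 every 4 h library was above every control library, as in 10.9% of all genes. These last values are a description only, since the contrast that chose the genes used the same control libraries, and since Mmp8 (mean of 0.565 CPM at 4 h), Clec4e (0.918 CPM) and Trem1, each with means under 1 CPM in controls and at 4 h, reached the average of 1 CPM through the 24 h group. Cxcr2 (means of 0.0835 CPM in controls and 1.22 CPM at 4 h) and Clec4d (0.109 and 1.19 CPM) also needed the 24 h group to reach it. Summed erythroid markers were 291 to 495 CPM at 4 h and 105 to 160 CPM in controls, and their part in the result was not tested. The call of Lcn2 was lost without library C or D of the 4 h group or library H or I of the control group. Without 24 h library G, 5 genes passed. That library enters the estimate of the spread and the average that sets which genes are tested, but neither of the compared group means.

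In infarcted hearts injected with Luc modRNA, the 10 genes stood above sham at each time on average, and 9 of them had their highest Luc mean at 48 h, Lcn2 being the exception. S100a9 had 10.7 and 1.24 CPM in the sham libraries, 85.6, 43.8, 65.0 and 39.1 CPM 4 h post-MI, 42.2, 20.7 and 30.4 CPM at 24 h, and 170.1, 75.5, 79.05 and 38.5 CPM at 48 h. S100a8 had 5.80 and 0.381 CPM in sham, 34.5, 17.5, 24.1 and 14.9 CPM at 4 h, 15.6, 8.94 and 8.89 CPM at 24 h, and 113, 51.6, 41.1 and 19.9 CPM at 48 h. In both genes every Luc library was above both sham libraries, and the 4 h and 48 h groups overlapped. Sham library 1 was above sham library 2 in all 10 genes, with a summed 25.1 against 5.87 CPM, so the distance to sham depends on which of these is used.

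At 4 h, 4 of the 10 genes were higher in Luc hearts than in sham, where 1.55% of all genes passed and 1.25% rose. These were S100a9 (log2 fold change 3.47, SE 0.65, adjusted p = 0.00423), Csf3r (2.26, SE 0.42, adjusted p = 0.00442), S100a8 (2.88, SE 0.65, adjusted p = 0.0190) and Trem1 (1.75, SE 0.43, adjusted p = 0.0382). Retnlg had 2.85 (SE 0.78, adjusted p = 0.0692), Clec4d 1.47 (adjusted p = 0.0778) and Lcn2 1.84 (SE 0.57, adjusted p = 0.123). Every Luc library was above both sham libraries in 10 of the 10 genes, against 17.2% of all genes, and the same held for 10 of 10 at 24 h, against 37.4%. Csf3r (0.935 CPM), Cxcr2, Clec4d, Clec4e, Mmp8 and Trem1 (0.308 CPM) averaged under 1 CPM in sham. They reached the average of 1 CPM through the infarcted groups. Their part in the counts of genes higher than sham at 4, 24 and 48 h is therefore a description. The count of 4 fell to 2 without Luc library 1 or sham library 1 and to 1 without sham library 2. Erythroid markers, which trace blood left in the tissue, summed to 1033 to 1567 CPM in these Luc libraries and to 123 to 417 CPM in sham, and their part in the result was not tested.

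At 24 h, 10 of the 10 genes were higher in Luc hearts than in sham, against 25.3% of all genes, and Lcn2 stood far apart from the others. Lcn2 had 1070, 227 and 286 CPM at 24 h, 18.9, 9.58, 13.2 and 9.17 CPM at 4 h, 244, 65.8, 270.4 and 89.6 CPM at 48 h, and 2.84 and 2.57 CPM in sham. Its log2 fold change of 6.80 over sham at 24 h (SE 0.60, adjusted p = 8.75e-08) was the largest of the 12555 genes tested. The next largest of the 10 were S100a9 at 2.59 (SE 0.68, adjusted p = 0.00558) and Trem1 at 2.51 (SE 0.45, adjusted p = 0.000247), and the smallest was Mmp8 at 1.56 (SE 0.60, adjusted p = 0.0475). The 24 h libraries also stood apart over all genes: the median log2 fold change over sham was 0.16, and a rescaling of each library to the median ratio moved it by -0.17, with 2302 genes higher and 2012 lower instead of 3172 and 1103. After this rescaling 7 of the 10 genes passed, with S100a8 (adjusted p = 0.0505), Retnlg (0.0569) and Mmp8 (0.0652) no longer under 0.05. The count was 4 without sham library 2 and 6 without Luc library A. Of the monocyte and macrophage markers, 2 of 8 were higher and 1 lower, with sums of 142 to 198 CPM, and their part in the result was not tested.

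At 48 h, 10 of the 10 genes were again higher in Luc hearts than in sham, against 13.7% of all genes, with adjusted p between 8.94e-07 and 0.00741. Lcn2 rose by 5.26 (SE 0.57), Csf3r by 4.10 (SE 0.42), S100a8 and S100a9 by 3.97 each (SE 0.65), Cxcr2 by 3.79 (SE 0.58) and Clec4d by 3.34 (SE 0.41) on the log2 scale. Csf3r had 40.4, 31.2, 22.9 and 35.9 CPM at 48 h against 1.14 and 0.730 CPM in sham, a ratio of means of 34.9 ± 13.5, and its libraries were the closest together of the 10 genes, with a coefficient of variation of 23.0%. Retnlg was the one gene whose 48 h libraries overlapped sham. It had 46.1, 9.52, 29.0 and 1.35 CPM at 48 h and 1.86 and 0.159 CPM in sham, and its log2 fold change was 2.91 (SE 0.78). In 9 of the 10 genes every 48 h library was above both sham libraries, against 19.2% of all genes. Markers of other cells were higher than in sham too: 5 of 8 for monocytes and macrophages, which summed to 184 to 238 CPM against 122 to 129 CPM, 3 of 4 for fibroblasts and 2 of 3 for platelets, with 0 lower in each list. Their part in the result was not tested. Of the neutrophil markers outside the 10 genes, Ly6g was at most 1.204 CPM in any library of the second table, whereas Ngp rose over sham at 24 h (3.66, SE 0.56, adjusted p = 4.22e-05) and averaged 15.97 ± 2.91 CPM (SD, n = 3) in the 24 h Luc group, 2.52 ± 2.87 CPM (SD, n = 4) in the 48 h Luc group and 0.339 ± 0.166 CPM (SD, n = 2) in sham. At 48 h over sham, 7 of the 8 neutrophil markers tested passed in limma. These 7 belong to the 10 genes already counted, so they are not a separate measure. Ngp, the only tested marker outside the 10 genes, did not pass, and its raw p was not under 0.05.

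**Figure D2:**
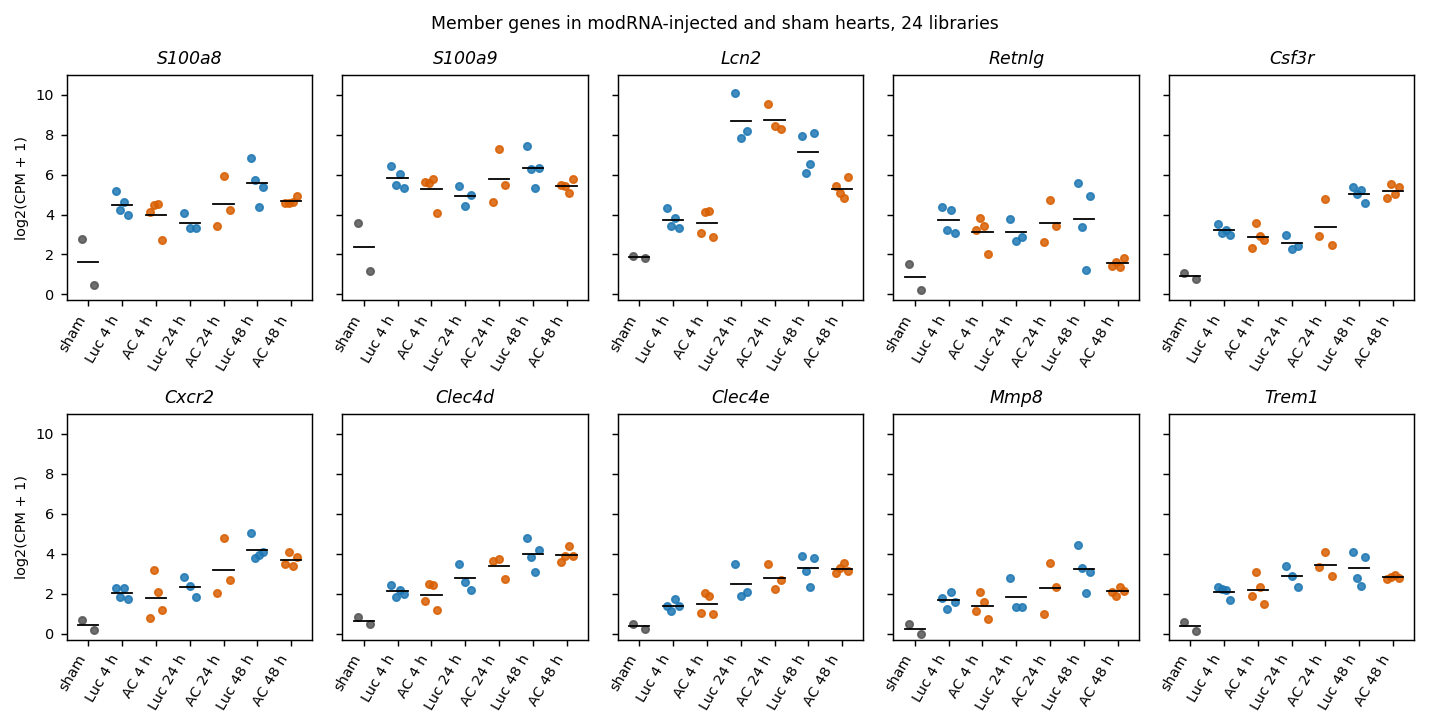
Levels of the 10 genes in the second table, as log2(CPM + 1) on the vertical axis, with 1 point per library and a line at the group mean for sham (2 libraries) and for Luc and AC hearts 4 h (4 and 4), 24 h (3 and 3) and 48 h (4 and 4) post-MI. By group mean, Lcn2 peaks at 24 h in both treatments, while Csf3r and Cxcr2 are highest at 48 h. For Cxcr2 in AC hearts these times overlap, with 26.7 CPM in 24 h library C and 9.65 to 15.8 CPM at 48 h.

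**Figure D3:**
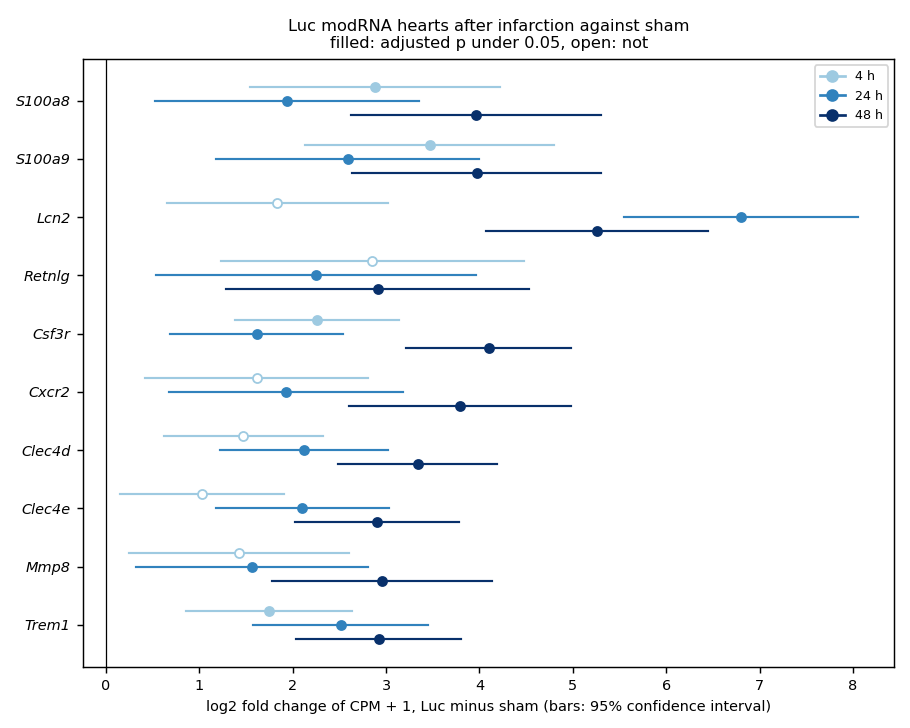
Log2 fold change of CPM + 1 of Luc hearts over sham for each gene at 4, 24 and 48 h post-MI, with bars for the 95% confidence interval and filled points for an adjusted p under 0.05. The points of 4 genes are filled at 4 h and of all 10 at 24 and 48 h, and Lcn2 at 24 h lies farthest from 0.

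Between times in Luc hearts, Lcn2 rose and then fell, and the receptors Csf3r and Cxcr2 rose at the later step. Lcn2 rose from 4 to 24 h by a log2 fold change of 4.96 (SE 0.50, adjusted p = 4.36e-07), a ratio of means of 41.4 ± 39.8 (20.2 without Luc library A of the 24 h group), and Clec4e rose by 1.07 (SE 0.37, adjusted p = 0.0319), where 24.5% of all genes rose. In Lcn2, Clec4e and Trem1 every 24 h library was above every 4 h library, as in 32.9% of all genes. S100a8 (-0.94, SE 0.57, adjusted p = 0.214), S100a9 (-0.87, SE 0.57, adjusted p = 0.251), Csf3r (-0.64, SE 0.37, adjusted p = 0.197) and Retnlg (-0.60, SE 0.69, adjusted p = 0.536) were lower on average but did not pass. The call of Clec4e was lost under the median-ratio rescaling (adjusted p = 0.0679) and without Luc library 1, 2 or 4 of the 4 h group or library A of the 24 h group, which each left 1 gene. With the rescaling the all-gene median shifted by -0.15 and the test gave 1964 genes higher and 1803 lower instead of 3079 and 979.

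From 24 to 48 h, 5 of the 10 genes rose, against 9.32% of all genes. Csf3r rose by 2.48 (SE 0.37, adjusted p = 4.95e-05), S100a8 by 2.03 (SE 0.57, adjusted p = 0.00729), Cxcr2 by 1.86 (SE 0.51, adjusted p = 0.00591), Mmp8 by 1.40 (SE 0.50, adjusted p = 0.0292) and Clec4d by 1.22 (SE 0.36, adjusted p = 0.0104). Lcn2 fell, with a log2 fold change of -1.54 (SE 0.50, adjusted p = 0.0180), where 32.6% of all genes fell. S100a9 had 1.38 (SE 0.57, adjusted p = 0.0554) and Clec4e 0.80 (SE 0.37, adjusted p = 0.0877). In Csf3r, Cxcr2 and S100a8 every 48 h library was above every 24 h library, as in 8.6% of all genes. Under the median-ratio rescaling, which moved the median of all genes by 0.22 and gave 2028 genes higher and 2054 lower instead of 1170 and 4088, S100a9 (adjusted p = 0.0345) and Clec4e (adjusted p = 0.0459) passed and Lcn2 did not (adjusted p = 0.0576). Summed cardiomyocyte markers were 48735 to 62117 CPM in the 24 h Luc libraries, 28623 to 38339 CPM at 48 h and 38142 to 43289 CPM in sham, and their part in these differences was not tested.

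The ratio of the calprotectin pair differed between the sets of libraries. S100a9 was 2.58 ± 0.104 times S100a8 (CPM, SD, n = 4) in Luc hearts at 4 h, 2.81 ± 0.561 (SD, n = 3) at 24 h and 1.71 ± 0.256 (SD, n = 4) at 48 h. AC hearts had 2.61 ± 0.346 (SD, n = 4) at 4 h, 2.46 ± 0.122 (SD, n = 3) at 24 h and 1.73 ± 0.234 (SD, n = 4) at 48 h. In both treatments every 48 h library was below every 4 h library, with mean differences of -0.868 in Luc hearts and -0.884 in AC hearts, and of -1.02 to -0.768 with any 1 library left out. This ratio and these times were picked after the values had been seen, so the differences are a description without a test. In the uninjected hearts the ratio was 1.87 ± 0.241 (SD, n = 3) at 4 h and 2.02 ± 0.142 (SD, n = 4) at 24 h.

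**Figure D4:**
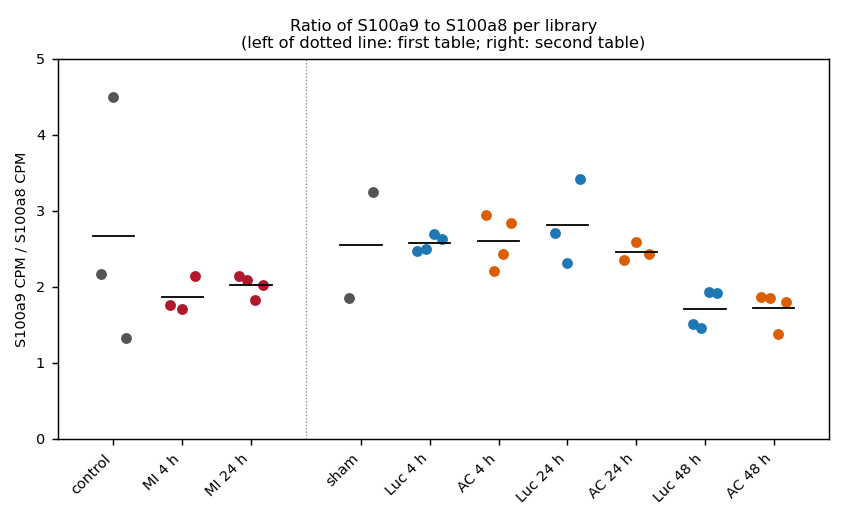
Ratio of S100a9 to S100a8 CPM in each library, with a line at the group mean and a dotted line between the first table on the left and the second on the right. The Luc and AC libraries at 48 h, with means of 1.71 and 1.73, lie below all Luc and AC libraries at 4 h, with means of 2.58 and 2.61, and the control and sham ratios rest on low values.

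AC modRNA was compared to Luc modRNA at each time. Every AC library was above both sham libraries in 9 of the 10 genes at 4 h (8.24% of all genes), in 10 at 24 h (31.5%) and in 9 at 48 h (32.5%), where the exceptions were S100a8 at 4 h and Retnlg at 48 h. Between the treatments at 4 h, 0 of the 10 genes passed in limma, 0 had a raw p under 0.05 (1.04% of all genes), and 0.00796% of all genes passed. S100a9 had 48.8, 47.1, 53.3 and 15.7 CPM in AC hearts, a log2 difference to Luc of -0.56 (95% confidence interval -1.65 to 0.53), and Retnlg was the farthest from 0 at -0.59 (interval -1.92 to 0.73). Intervals of this width do not show that the levels were alike. AC library 4 was the lowest of its group for both.

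At 24 h, again 0 of the 10 genes passed in limma, 0 had a raw p under 0.05 (4.77% of all genes), and 0.00796% of all genes passed. All 10 log2 differences were positive (44.4% of all genes), from 0.04 for Lcn2 (interval -1.08 to 1.16) to 0.98 for S100a8 (interval -0.29 to 2.24), with adjusted p of at least 0.991. AC library C stood highest of the 24 h AC libraries in all of the 10 genes but Lcn2 and Clec4e, so the positive differences lean on this library. It had 59.6 CPM of S100a8 where the other 2 AC libraries had 9.91 and 17.8 CPM, and 154 CPM of S100a9 where they had 23.3 and 43.4 CPM. Lcn2 was not highest in library C, with 338 CPM there against 736 and 304 CPM in libraries A and D.

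At 48 h, Lcn2 and Retnlg were lower in AC than in Luc hearts. Lcn2 had 41.8, 32.7, 27.7 and 57.1 CPM in AC hearts and 244, 65.8, 270.4 and 89.6 CPM in Luc hearts, means of 39.8 ± 12.9 and 167 ± 105 CPM (SD, n = 4 each), and its groups did not overlap. Its log2 difference was -1.85 (SE 0.47, 95% confidence interval -2.81 to -0.88, adjusted p = 0.0111). Retnlg had 1.68, 2.07, 1.57 and 2.58 CPM in AC hearts and 46.1, 9.52, 29.0 and 1.35 CPM in Luc hearts, a log2 difference of -2.21 (SE 0.64, interval -3.54 to -0.89, adjusted p = 0.0227). Luc library 4 was below every AC library for Retnlg, so these groups overlapped. The 2 genes are set against 3.27% of all genes that were lower and 12.1% that were higher, and Lcn2 was the 1 member of the 10 with every AC library below every Luc library, as in 3.58% of all genes.

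The other 8 genes did not pass at 48 h. Mmp8 had 2.77 to 4.07 CPM in AC hearts and 20.9, 8.70, 7.59 and 3.07 CPM in Luc hearts, a log2 difference of -1.10 (SE 0.46, interval -2.06 to -0.14, adjusted p = 0.112). S100a8 had 23.2, 22.8, 23.6 and 29.5 CPM in AC hearts, a difference of -0.90 (interval -1.99 to 0.19, adjusted p = 0.257), and S100a9 had 43.3, 42.3, 32.5 and 53.2 CPM, a difference of -0.89 (interval -1.98 to 0.20, adjusted p = 0.261). The receptors lay nearer to 0. Csf3r had 27.1, 44.4, 32.1 and 40.7 CPM in AC hearts, a mean of 36.1 ± 7.89 CPM against 32.6 ± 7.49 CPM in Luc hearts (SD, n = 4 each), and a difference of 0.15 (interval -0.57 to 0.86, adjusted p = 0.814). Clec4d (-0.04, interval -0.74 to 0.65) and Clec4e (-0.03, interval -0.75 to 0.69) were closest to 0. In 9 of the 10 genes the difference was negative, while it was positive in 66.8% of all genes, whose median was 0.14. A median-ratio rescaling moved this median by -0.12 and gave 844 genes higher and 774 lower instead of 1516 and 410. It left the calls of Lcn2 and Retnlg in place.

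The spread between libraries at 48 h also differed: the coefficient of variation in AC hearts was between 6.80% for Trem1 and 32.4% for Lcn2, and in Luc hearts between 23.0% for Csf3r and 93.5% for Retnlg. Without Luc library 3, 0 of the 10 genes passed, and 1 passed without Luc library 1, AC library 2 or AC library 4. Summed lymphocyte markers were 18.9 CPM in Luc library 3 and 1.58 to 3.18 CPM in the other Luc libraries at 48 h. They were 2.46 to 3.31 CPM in AC hearts, and their part in the result was not tested. A test of whether the AC difference itself changed from 4 to 48 h called 0 of the 10 genes in limma (1 without Luc library 4 of the 48 h group), where 3.35% of all genes passed, and 1 had a raw p under 0.05, against 18.7% of all genes. In it Lcn2 had -1.69 (SE 0.66, adjusted p = 0.162) and Retnlg -1.62 (SE 0.90, adjusted p = 0.342), so a difference confined to 48 h was not shown. From 4 to 24 h the same test called 0 of the 10 genes in limma, where 0.00796% of all genes passed, and 1 had a raw p under 0.05 (Csf3r, 1.15, SE 0.53, adjusted p = 1), against 3.02% of all genes.

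**Figure D5:**
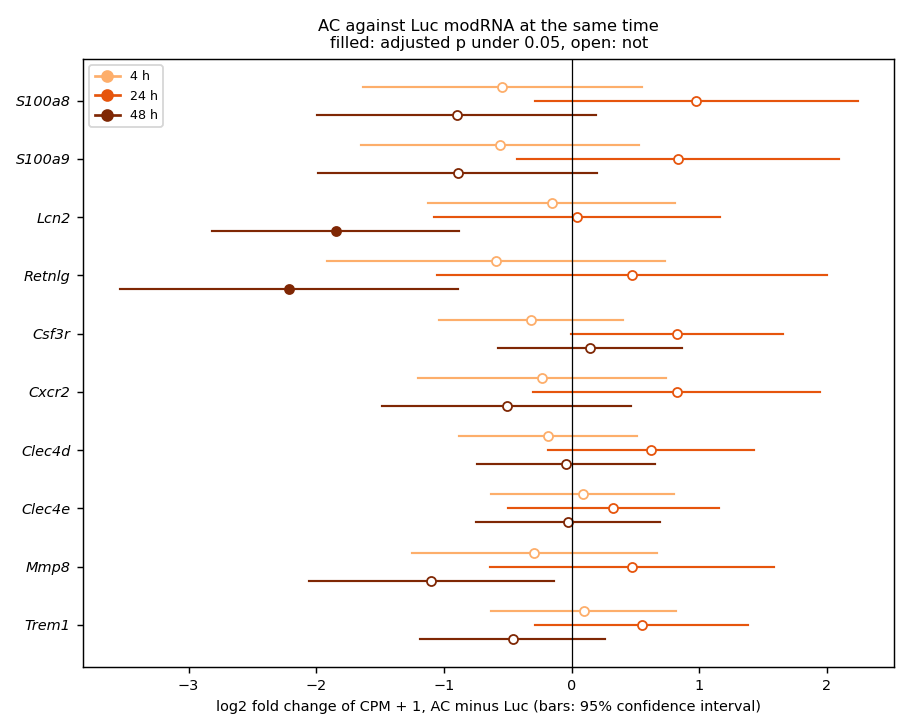
Log2 difference of CPM + 1 between AC and Luc hearts for each gene at 4, 24 and 48 h post-MI, with bars for the 95% confidence interval and filled points for an adjusted p under 0.05. Only Lcn2 (-1.85) and Retnlg (-2.21) at 48 h are filled.

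Markers of other cell types moved between AC and Luc hearts at 48 h as well. Summed monocyte and macrophage markers were 271 to 348 CPM in AC hearts and 184 to 238 CPM in Luc hearts, with 4 of 8 higher and 0 lower. Summed fibroblast markers were 1201 to 1957 CPM against 714 to 1066 CPM, with 2 of 4 higher, and summed cardiomyocyte markers 21653 to 27061 CPM against 28623 to 38339 CPM, with 2 of 6 lower. No marker of these 3 lists was at 0 in a whole group, and their part in the differences of Lcn2 and Retnlg was not tested. The neutrophil markers, among them 7 of the 10 genes, summed to 132 to 201 CPM in AC hearts and 204 to 671 CPM in Luc hearts. This sum contains Lcn2 and Retnlg themselves, so it is not a separate measure of neutrophil content. Of the 8 neutrophil markers tested, 2 were lower, which were Lcn2 and Retnlg, and 0 were higher.

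Genes with related roles were taken from lists made with earlier results of these data known, and are given as counts. They are read against the share of all genes that passed, which was 1.55% higher at 4 h over control, 1.25%, 25.3% and 13.7% higher in Luc hearts over sham at 4, 24 and 48 h, and 12.1% higher and 3.27% lower in AC than in Luc hearts at 48 h. With raw p-values of limma, 16.5% of all genes were under 0.05 at 4 h over control. In Luc hearts over sham 13.6%, 44.4% and 40.7% were so at 4, 24 and 48 h. Between AC and Luc hearts 1.04%, 4.77% and 30.3% were so at these times. Of the ligands of Cxcr2 and Csf3r, 4 of 6 rose 4 h post-MI in the uninjected hearts, when 1 of the 10 genes above had passed. Cxcl1, a chemokine that attracts neutrophils through Cxcr2, rose by 4.28 (SE 0.23, adjusted p = 1.73e-06), Cxcl3 had 0.84 (SE 0.37, adjusted p = 0.291), and the list had a median log2 fold change of 2.07 against -0.03 over all genes. In Luc hearts 0 of 6 passed at 4 h in limma and 5 had a raw p under 0.05, with Cxcl1 at 3.25 (SE 0.86, adjusted p = 0.0565) and Cxcl2 at 2.97 (SE 0.85, adjusted p = 0.0874). At 24 h 5 of 6 were higher than in sham, among them Cxcl1 (adjusted p = 0.000268) and Cxcl2, which rose by 5.14 (SE 0.90, adjusted p = 0.000187), and at 48 h 4 of 6. From 24 to 48 h Cxcl1 fell, with -3.71 (SE 0.76, adjusted p = 0.000687), as did Cxcl2, with -2.53 (SE 0.75, adjusted p = 0.0103), and Ppbp, a platelet chemokine, was the 1 ligand that rose, by 1.19 (SE 0.29, adjusted p = 0.00269). Lcn2 fell over the same interval, in which Csf3r and Cxcr2 rose. Between AC and Luc hearts 0 of the 6 ligands passed in limma at any time, with 0, 0 and 1 at a raw p under 0.05 at 4, 24 and 48 h.

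Of 12 granule protein genes tested, 0 passed in limma at 4 h over control or over sham, with 0 and 7 at a raw p under 0.05. In Luc hearts 8 were higher than in sham at 24 h and 9 at 48 h, with medians of 1.11 and 1.84 on the log2 scale. Itgam, the alpha chain of the integrin Mac-1, rose by 1.41 (SE 0.50, adjusted p = 0.0335) at 24 h and by 3.21 (SE 0.48, adjusted p = 4.41e-05) at 48 h over sham. Lyz2, a lysozyme that macrophages also make in quantity, had 0.14 (SE 0.31, adjusted p = 0.780) at 48 h over sham. In AC hearts at 48 h Lyz2 was higher than in Luc hearts by 1.27 (SE 0.25, adjusted p = 0.00203), with means of 251 ± 55.7 and 103.7 ± 23.8 CPM (SD, n = 4 each), and 3 of the 12 genes rose and 0 fell.

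Of the other neutrophil surface and cytosolic genes, 13 were tested in the second table, of which 2 were higher in Luc hearts than in sham at 4 h, 10 at 24 h and 13 at 48 h. Slfn4 rose by 4.47 (SE 0.72) at 24 h and 6.26 (SE 0.69) at 48 h over sham, with 92.9 ± 39.9 CPM (SD, n = 4) at 48 h. Hdc, which makes histamine, rose by 4.31 (SE 0.56) at 24 h and 2.03 (SE 0.53) at 48 h. Of 18 genes tested in the first table, 0 passed in limma at 4 h (1 at a raw p under 0.05), with Slfn4 at 0.72 (SE 0.49, adjusted p = 0.505) and Il1r2 at 1.11 (SE 0.54, adjusted p = 0.334). Between AC and Luc hearts at 48 h, 4 of the 13 were lower and 0 higher, and Il1r2, the decoy receptor for interleukin 1, fell with a log2 difference of -1.92 (SE 0.51, adjusted p = 0.0152). The transcription factors of granulocytes held 4 tested genes, all of which were higher in Luc hearts than in sham at 24 h. Cebpb, a C/EBP factor of emergency granulopoiesis, rose by 1.47 (SE 0.32, adjusted p = 0.00156) and Cebpd, a related factor, by 2.79 (SE 0.39, adjusted p = 1.54e-05). At 4 h 1 of 4 passed in each table, Cebpd, with 2.58 (SE 0.18) over control and 1.51 (SE 0.37) in Luc hearts over sham, and at 48 h 3 of 4.

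The receptors through which calprotectin acts, and their adaptors, gave 2 of 5 higher in Luc hearts at 4 h, 2 at 24 h and 3 at 48 h over sham. Bsg, the most abundant of them, had 0.21 (SE 0.26), 0.28 (SE 0.27) and -0.04 (SE 0.26) at these times and did not pass. Cd14, the coreceptor of Toll-like receptor 4, rose by 1.68 (SE 0.40), 1.55 (SE 0.42) and 1.98 (SE 0.40). In the uninjected hearts 0 of 5 passed in limma at 4 h (2 at a raw p under 0.05), with Cd14 at 1.41 (SE 0.40, adjusted p = 0.112). The adaptors and signalling genes of Clec4d, Clec4e and Trem1 gave 0 of 6 at 4 h in limma (2 at a raw p under 0.05), 3 at 24 h and 5 at 48 h over sham, with Syk, the kinase they recruit, rising by 0.84 (SE 0.22, adjusted p = 0.00622) at 24 h and 1.01 (SE 0.21, adjusted p = 0.00115) at 48 h. Bcl10, which acts below Card9, rose by 0.66 (SE 0.19, adjusted p = 0.0119) at 24 h and had 0.14 (SE 0.18, adjusted p = 0.594) at 48 h. In the uninjected hearts 0 of 6 passed in limma at 4 h (2 at a raw p under 0.05), with Tyrobp at 0.37 (SE 0.30, adjusted p = 0.601). Of 7 other S100 genes tested, 0 passed in limma at 4 h over control (1 at a raw p under 0.05), 0 in Luc hearts over sham at 4 and at 24 h (0 at a raw p under 0.05 at each), and 3 were higher at 48 h. S100a6 rose by 1.47 (SE 0.35, adjusted p = 0.00297) at 48 h, whereas S100a1, an S100 gene of cardiac muscle, had -0.50 (SE 0.28, adjusted p = 0.187).

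Likeness to the 10 genes was measured as the Pearson correlation across libraries between the log2(CPM + 1) of a gene and the mean of the standardized members, as a description of groups that differ together. In the first table (10 libraries) the 5 highest were Il1r2 (0.998), Samsn1 (0.998), Ccr1 (0.997), Sh2d5 (0.996) and Pgf (0.996), values set largely by the distance between the 24 h group and the rest. In the second table (24 libraries) they were Il1r2 (0.925), Cd24a (0.898), Mcemp1 (0.896), Itga5 (0.893) and Srgn (0.891). Among the 10 genes themselves, Trem1 (0.946), Mmp8 (0.934) and Clec4d (0.924) lay closest to the mean in the second table, and Lcn2 (0.696) and Retnlg (0.627) lay farthest from it. Each member is part of that mean, which raises its own correlation, so these values are not comparable to those of the other genes.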

How the data were processed

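RNA of mouse LV samples was sequenced after poly(A) selection in 34 libraries. For the first table the authors aligned reads to mm10 with STAR, counted RefSeq genes with the expectation-maximization method of Partek and normalized by TMM, and they deposited CPM. This table rests on an estimated 12553519 to 18952669 reads in its listed genes per library, from the value of 1 read. The deposited values of the second table are CPM to which 1 had been added, since the lowest value is exactly 1, and 1 was subtracted here. Its processing beyond the build, mm10, is not given in the sources used here, and its depth is unknown. Whether strand was used in counting is not stated. Of the values under 1 CPM in the first table, 82.7% lay within 0.02 reads of a whole multiple of 1 read, too few for a count test. The tables were normalized separately and each was tested on its own.

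Groups were taken from the labels. The test was limma (version 3.58.1, R 4.3.3, lmFit and eBayes with a trend) on log2(CPM + 1), a scale that understates the change of low genes. It ran over genes averaging 1 CPM or more (12487 and 12555), with all groups of a table in 1 model, no covariates, and Benjamini-Hochberg adjustment over all genes tested. An adjusted p under 0.05 was called. Ratios are of arithmetic means with propagated SDs. Other values were computed in Python 3.11.15. The limma script was tested on simulated counts for AC against Luc at 48 h, where it called 177 of 200 changed genes with 8 false calls among 12527 genes. The simulation used an assumed depth and the same dispersion in every group. In the data the spread differed between groups, with a coefficient of variation of up to 93.5% in Luc hearts at 48 h. The simulated counts therefore check the script and do not give its error rate in these data.

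The members and gene lists were chosen with earlier results of these data known. Named with values were the 10 members, the 2 genes of highest mean in each list, any call against the majority of its list, and the 5 genes most like the members. The neutrophil markers Ly6g, Ngp and Ltf, and Il1r2 in AC against Luc hearts, were named after their values were seen. Same-numbered AC and Luc libraries were checked for pairing, and the numbers did not pair them: correlations of their deviations ran from -0.206 to 0.252. Alternatives were a pseudocount of 0.1, no filter on low values, no trend, array weights, median-ratio rescaling, a model of the compared groups alone, a replicate block, and each library left out. The second table with its added 1 kept, the rescaling of levels in the first table, and the libraries left out of the ratios, were added after the data were seen.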

Additional observations from a re-analysis of the deposited data

Results flagged for a closer look

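Of 50 combinations of gene and group with at least 4 libraries, 2 had a highest or lowest library whose gap to the nearest other library exceeded Dixon's 95% critical value for that group size, and chance gives about 1 in 20. S100a8 was 29.5 CPM in AC library 5 at 48 h, above 22.8 to 23.6 CPM in the other AC libraries of that time. S100a9 was 15.7 CPM in AC library 4 at 4 h, below 47.1 to 53.3 CPM in the others.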

How the results depend on the processing

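The number of the 10 genes that passed depended on the model where few libraries carried the contrast. With a pseudocount of 0.1, 5 genes passed 4 h post-MI over control instead of 1 and 9 in Luc hearts over sham at 4 h instead of 4. With limma array weights these counts were 4 and 2, and with the compared groups alone 3 and 10. Between 24 and 4 h in Luc hearts, 4 genes passed with array weights, 1 after median-ratio rescaling and 6 with the compared groups alone, instead of 2. Between AC and Luc at 48 h, 1 passed with the compared groups alone instead of 2. With a replicate block of same-numbered libraries, which the pairing check did not bear out, 1 gene passed between AC and Luc at 48 h, 5 in Luc hearts over sham at 4 h, and 0 between AC and Luc at 4 and 24 h, and the block turned Csf3r to -0.073, Clec4d to 0.050 and Clec4e to 0.17 at 48 h. Array weights turned Trem1 at 4 h to -0.070, Clec4d and Clec4e at 48 h to 0.12 and 0.14, and the change of the AC difference from 4 to 48 h of S100a9, Cxcr2 and Clec4e to 0.021, 0.14 and 0.034. The cause was not tested.

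With 1 library left out at a time, the counts ran from 0 to 5 (4 h over control), 1 to 6, 4 to 10 and 9 to 10 (Luc over sham at 4, 24 and 48 h), 1 to 2 and 4 to 8 (Luc 24 over 4 h and 48 over 24 h), 0 to 3 (AC against Luc at 48 h) and 0 to 1 (its change from 4 to 48 h). Signs turned in ranges that crossed 0: Mmp8 in Luc from 4 to 24 h (-0.35 to 0.39), AC against Luc at 4 h for Lcn2 (-0.37 to 0.077), Cxcr2 (-0.69 to 0.11), Clec4d (-0.36 to 0.070), Clec4e (-0.10 to 0.25) and Trem1 (-0.20 to 0.34), at 24 h for Lcn2 (-0.39 to 0.73), Retnlg (-0.10 to 0.95), Clec4e (-0.013 to 0.82) and Mmp8 (-0.16 to 1.14), and at 48 h for Csf3r (-0.0085 to 0.27), Clec4d (-0.34 to 0.22) and Clec4e (-0.34 to 0.18). The change of the AC difference did so for Lcn2 (-0.23 to 0.88) and Clec4e (-0.098 to 0.74) to 24 h, and for S100a8 (-0.78 to 0.057), S100a9 (-0.73 to 0.033), Cxcr2 (-0.62 to 0.18), Clec4d (-0.15 to 0.41) and Clec4e (-0.43 to 0.091) to 48 h. Over all alternatives the adjusted p of Lcn2 between AC and Luc at 48 h ran from 0.00415 to 0.105, and that of Retnlg from 0.000324 to 0.113.

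Over all genes, 296 passed 4 h over control, against 2500 with array weights and 715 with the compared groups alone, and 194 in Luc hearts over sham at 4 h, against 580 with the compared groups alone. At 48 h over sham 3774 passed, against 2227 with array weights and 1504 with the compared groups alone, and between 24 and 4 h in Luc hearts 4058 passed, against 6147 with array weights. Between AC and Luc at 48 h 1926 passed, against 3178 with array weights and 479 with the replicate block, and for the change of that difference from 4 to 48 h 421 passed, against 1621 with array weights and 235 with a pseudocount of 0.1. The share of higher calls in the change of the AC difference from 4 to 48 h also moved with median-ratio rescaling, from 362 higher and 59 lower to 275 and 174. The 2 sham libraries, the unknown depth of the second table and control values of a few reads in the first set the precision.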
